A study of Homo sapiens with 6 samples.

Results

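The 10 genes described here encode the sensors of the unfolded protein response and the factors that act with them in or near the endoplasmic reticulum membrane. They were the rows of the expression table with the symbols ERN1, EIF2AK3, EIF2AK1, ATF6, ATF6B, XBP1, CREB3, CREB3L2, MBTPS1 and MBTPS2, 10 of 20388 genes. The RNA was from MHCC-97H, an established cell line of human hepatocellular carcinoma, labelled wild type in every library. 3 libraries are of cells kept for 24 h with GK921, which blocks the protein cross-linking enzyme transglutaminase 2 (TGM2), at 2 µM. The other 3 are of cells kept for 24 h with DMSO, the solvent. The study concerns TGM2 and MYC signalling, and the comparison asks how transcript levels with the inhibitor differed from those with solvent. All 6 libraries are of 1 cell line, 1 dose and 1 time, and none is of TGM2-depleted cells.

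The unfolded protein response answers an excess of unfolded protein in the endoplasmic reticulum, and it is well developed in secretory cells such as hepatocytes. IRE1 (ERN1) is a transmembrane kinase and RNase that cuts XBP1 mRNA, so that the ligated product encodes a transcription factor. PERK (EIF2AK3) is a transmembrane kinase that phosphorylates the translation factor eIF2alpha, which slows translation and favours that of ATF4. ATF6, its paralog ATF6B and the CREB3 family are membrane-held transcription factors, freed in the Golgi by the site 1 protease (MBTPS1) and then the site 2 protease (MBTPS2). HRI (EIF2AK1) is a soluble eIF2alpha kinase, known as the heme-regulated inhibitor, which also takes signals of mitochondrial stress. These proteins are controlled by phosphorylation, splicing and cleavage, none of which gene-level RNA values measure.

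Values were FPKM, fragments scaled by gene length and by the assigned total, which are per length and so can be set side by side between genes. Libraries of the same group correlated at 0.993 to 0.995 across the 11573 genes that averaged 1 FPKM or more, and libraries of different groups at 0.914. Absolute depth is unknown. Relative depth, read from the steps between low values, was 0.765 to 0.858 in GK921 libraries and 0.862 to 1.0 in DMSO libraries, with the deepest library set to 1. Of 15 markers of liver cells and liver cancer, 5 had a mean of at least 1 FPKM (among them KRT8, KRT18 and HNF4A). The secreted liver proteins ALB and APOA1 and the tumour marker AFP were below 1 FPKM in every library, and APOA2 and GPC3 were listed at 0. The hepatocyte transcripts ALB, APOA1 and APOA2 were thus near or at 0. The summed FPKM of the 15 was 1897 to 1965 in GK921 libraries and 2424 to 2430 in DMSO libraries. Nearly all of it was 2 keratin genes, of which KRT8 averaged 1100 FPKM in GK921 and 1633 FPKM in DMSO, and KRT18 787 and 740.3 FPKM. Of 12 leukocyte, endothelial and fibroblast markers, CD68, PECAM1, LUM and DCN reached a mean of 1 FPKM, while the endothelial cadherin gene CDH5 was listed at 0. LUM averaged 24.8 FPKM in GK921 libraries and 42.2 FPKM in DMSO libraries, and DCN 0.953 and 8.34 FPKM. Of the other fibroblast markers, PDGFRB was at 0.31 to 0.35 FPKM in GK921 libraries and 0 to 0.03 FPKM in DMSO libraries, and COL1A1 and COL1A2 were at most 0.05 FPKM in any library. The part of these markers in the results below was not tested. Nothing in the labels says whether replicate libraries were separate cultures. The p-values here therefore reflect library-to-library spread only, and that spread may be technical.

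3 sequences bear on XBP1 and CREB3L2. The first is the stretch of XBP1 mRNA that IRE1 removes, shown because the deposited XBP1 value adds the cut and uncut forms together. It lies at chr22:28796124-28796149 on the minus strand (GRCh38) within 1 exon of an annotated XBP1 transcript, and the 26 capital letters mark it, with 15 bases on either side.
XBP1 excised stretch: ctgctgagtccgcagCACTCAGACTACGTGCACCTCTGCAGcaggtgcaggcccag
Of 7 XBP1 transcripts in GENCODE release 29, 4 contain this window whole and 2 contain its ends joined without the stretch. The other sequences are promoters, from 250 bases before to 50 bases after a start site (RefSeq, GRCh38.p14), which gave 11 windows for 9 of the 10 genes. EIF2AK1 had no entry in the table. Motifs sought on both strands were the endoplasmic reticulum stress elements ERSE (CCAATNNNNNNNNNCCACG) and ERSE-II, the unfolded protein response element (TGACGTGG), the cyclic AMP response element CRE (TGACGTCA) and an amino acid response element (TGATGNAA). The XBP1 window at chr22:28800520-28800819, minus strand, held the ERSE, the element that ATF6 and NF-Y are known to bind, with its first base 52 bases before the start. Its fixed letters are in capitals.
XBP1 promoter: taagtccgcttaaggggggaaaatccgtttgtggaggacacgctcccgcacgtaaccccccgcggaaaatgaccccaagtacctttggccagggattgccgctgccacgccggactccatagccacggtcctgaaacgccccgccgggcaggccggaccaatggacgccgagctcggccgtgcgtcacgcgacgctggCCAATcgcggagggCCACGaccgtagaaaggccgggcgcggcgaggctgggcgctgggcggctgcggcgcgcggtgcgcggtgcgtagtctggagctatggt
An ERSE was present in 27 of 35116 promoter windows in the table (0.0769%), and in none of the other windows of these genes. The CREB3L2 window at chr7:138002037-138002336, minus strand, held a CRE, a palindrome that reads the same on both strands, in capitals here.
CREB3L2 promoter: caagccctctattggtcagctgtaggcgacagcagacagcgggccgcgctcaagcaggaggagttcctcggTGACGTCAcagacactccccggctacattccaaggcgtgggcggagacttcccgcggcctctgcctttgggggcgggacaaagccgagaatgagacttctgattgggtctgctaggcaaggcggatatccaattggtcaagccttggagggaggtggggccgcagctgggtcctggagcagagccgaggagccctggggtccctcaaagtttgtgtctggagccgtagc
A CRE was present in 1.85% of windows, and CREB3L2 was the only one of these genes with it. A second CREB3L2 start had TGATGAAA, a match to the amino acid response element found in 3.62% of windows. ERSE-II (0.0541% of windows) and the unfolded protein response element (0.729%) were in no window of these genes. A match is a description of these letters and not of a bound site.

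The sensors and membrane factors mostly rose after GK921. Of the 10 genes, all of which passed the limit of 1 FPKM, 8 rose, 1 fell (MBTPS1) and 1 was not called (EIF2AK1), by limma on log2(FPKM + 1) at an adjusted p under 0.05 over all 11573 tested genes. ERN1, XBP1, EIF2AK3 and ATF6 were each more than 2-fold higher. These counts stand against a transcriptome in which 75.9% of tested genes were called, 46.8% higher and 29.2% lower, so a call by itself sets few genes apart. A ratio of mean FPKM of at least 2 was reached by 4 of the 10 genes and by 13.3% of tested genes. The 3 GK921 values did not overlap the 3 DMSO values for 9 of the 10 genes, 8 above and 1 below, and for 78% of tested genes, 48% above and 30% below. The median log2 change was 0.69 for the 10 genes and 0.16 for all tested genes, and subtracting 0.16 gives a change relative to the median gene. Median-ratio rescaling of the libraries put the median gene at -0.0013. It left 7 of the 10 genes higher and 2 lower, while 74.3% of tested genes were called, 36.5% higher and 37.8% lower. The counts at a ratio of 2 are of values as deposited. After the rescaling the log2 change of ATF6 was 0.83, which is below 2-fold. In bulk RNA, a change in the number of cells that hold a transcript and a change in RNA per cell cannot be told apart.

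**Figure D1:**
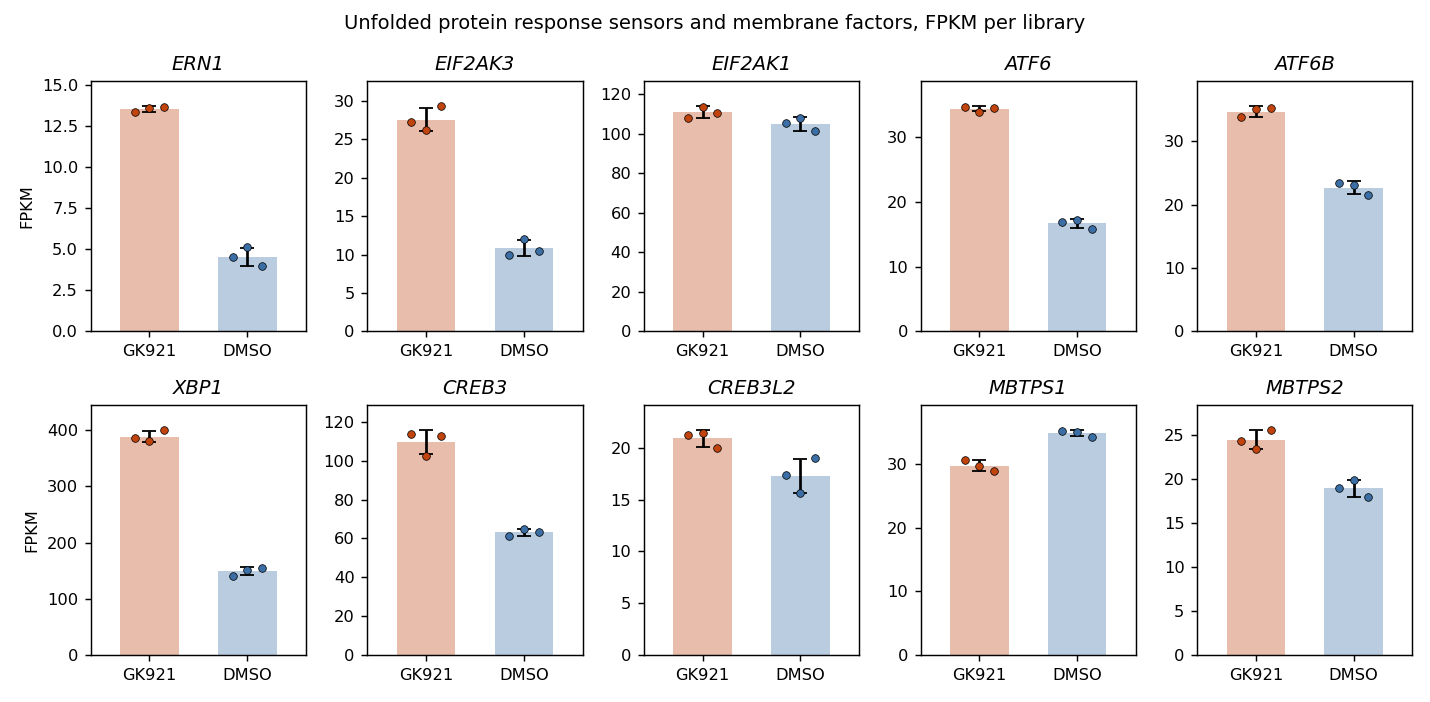
FPKM of each of the 10 genes, with GK921 to the left of DMSO in each panel. Points are the 3 libraries of a group, bars their mean and error bars the SD; the points of the groups overlap for EIF2AK1 only, and MBTPS1 is the only gene with GK921 below DMSO.

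Among the sensors, ERN1 encodes IRE1 (chromosome 17, 64039142 to 64130819, minus strand; GENCODE release 29, GRCh38, as for each position below). ERN1 was at 13.34, 13.61 and 13.67 FPKM in GK921 libraries, against 4.5, 5.1 and 3.99 FPKM in DMSO libraries. The lowest GK921 value lay 8.24 FPKM above the highest DMSO value, and the DMSO libraries varied more (CV 12.3%) than the GK921 libraries (1.3%). The ratio of means was 2.99 and the log2 change 1.40 ± 0.091 (SE; limma adjusted p = 1.06e-06), higher than that of 95.6% of tested genes. This change was within error of that of XBP1, and with a pseudocount of 5 it was 0.96, below those of XBP1 (1.35) and EIF2AK3 (1.05).

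EIF2AK3, the PERK gene (chromosome 2, 88556741 to 88627576, minus strand), was at 27.3, 26.3 and 29.31 FPKM in GK921 libraries, against 9.99, 11.99 and 10.47 FPKM in DMSO libraries. The groups were separate by 14.31 FPKM, with means of 27.6 ± 1.53 FPKM in GK921 and 10.8 ± 1.04 FPKM in DMSO (SD, n = 3 each, as for every mean below). The ratio of means was 2.56 and the log2 change 1.28 ± 0.079 (SE; limma adjusted p = 7.21e-07). 781 of its 5434 exon bases overlap AC104134.1, an antisense gene with no row in the table. The other eIF2alpha kinase of the set, EIF2AK1 (chromosome 7, 6022244 to 6059230, minus strand), was at 107.79, 113.46 and 110.46 FPKM in GK921 libraries, against 105.59, 108.0 and 101.18 FPKM in DMSO libraries. Here the groups overlapped, since 1 DMSO library exceeded the lowest GK921 library. The log2 change was 0.08, with a 95% interval of -0.01 to 0.16 (limma adjusted p = 0.103), whose upper end equals the change of the median gene. After median-ratio rescaling the sign turned and EIF2AK1 was called lower, at -0.10 (limma adjusted p = 0.0422). In the annotation, 532 of its 5550 exon bases overlap AIMP2 on the opposite strand, a gene at 99 FPKM in GK921 and 106 FPKM in DMSO, and no source used here says whether the counting kept the strands apart.

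The ratio of EIF2AK3 to EIF2AK1 within a library does not move with a single scale factor per library. This ratio was 0.253, 0.232 and 0.265 in GK921 libraries, against 0.0946, 0.111 and 0.103 in DMSO libraries. It was 2.43-fold higher, or 1.28 ± 0.088 on the log2 scale (SE), and every GK921 ratio was above every DMSO ratio. The exact two-sided permutation p was 0.1, which is the smallest that 3 against 3 allow, and 0.1 after adjustment over the 5 ratios computed. Of the eIF2alpha kinase genes outside the set, EIF2AK2 (PKR, which senses double-stranded RNA) fell to 30.5 ± 1.05 FPKM, against 37.9 ± 2.12 FPKM in DMSO (limma adjusted p = 9.47e-04), and EIF2AK4 (GCN2, which senses uncharged tRNA; named to complete the family after its values were seen) was at 20.2 ± 0.541 and 18.7 ± 0.781 FPKM (limma adjusted p = 0.128).

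ATF6 (chromosome 1, 161766294 to 161964070, plus strand) was at 34.65, 33.93 and 34.51 FPKM in GK921 libraries, against 16.94, 17.19 and 15.85 FPKM in DMSO libraries. The GK921 values lay within 1 FPKM of each other and the groups were 16.74 FPKM apart at their nearest. Its ratio of means was 2.06 and its log2 change 1.00 ± 0.053 (SE; limma adjusted p = 2.81e-07). ATF6B (chromosome 6, 32115264 to 32128253, minus strand), the paralog that is known as the weaker activator, was at 33.8, 35.08 and 35.33 FPKM in GK921 libraries, against 23.37, 23.17 and 21.57 FPKM in DMSO libraries. The groups were again separate, by 10.43 FPKM, with a ratio of means of 1.53 and a log2 change of 0.59 ± 0.053 (SE; limma adjusted p = 8.28e-06). The paralogs were thus at about the same level after GK921, and ATF6B was the more abundant in each DMSO library. The ATF6 to ATF6B ratio was 1.03, 0.967 and 0.977 in GK921 libraries, against 0.725, 0.742 and 0.735 in DMSO libraries. The difference in log2 ratio was 0.43 ± 0.028 (SE; exact two-sided permutation p = 0.1, adjusted 0.1). On the same strand, ATF6B shares 289 of its 3629 exon bases with AL662884.2, which has no row in the table, and 71 with TNXB, a gene at 2.1 FPKM in GK921 and 0.577 FPKM in DMSO.

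XBP1 (chromosome 22, 28794555 to 28800597, minus strand) was the most abundant of the 10 genes in both groups. It was at 385.88, 381.17 and 400.35 FPKM in GK921 libraries, against 141.33, 151.68 and 155.31 FPKM in DMSO libraries. The nearest values of the groups were 225.86 FPKM apart. The ratio of means was 2.6 and the log2 change 1.38 ± 0.040 (SE; limma adjusted p = 6.86e-09). XBP1 made up 49% of the summed FPKM of the 10 genes in GK921 libraries and 33.7% in DMSO libraries. The level of XBP1 relative to ERN1, its processing enzyme, was 28.9, 28 and 29.3 in GK921 libraries, against 31.4, 29.7 and 38.9 in DMSO libraries. This ratio differed by -0.21 ± 0.12 on the log2 scale (SE; exact two-sided permutation p = 0.1, adjusted 0.1), by -0.02 with a pseudocount of 1 and by 0.09 after quantile normalization, so no direction is given. How much of the XBP1 RNA lacked the excised stretch shown above cannot be read from these values. GENCODE lists 1 processed pseudogene, XBP1P1, on chromosome 5, which has no row in the table.

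**Figure D2:**
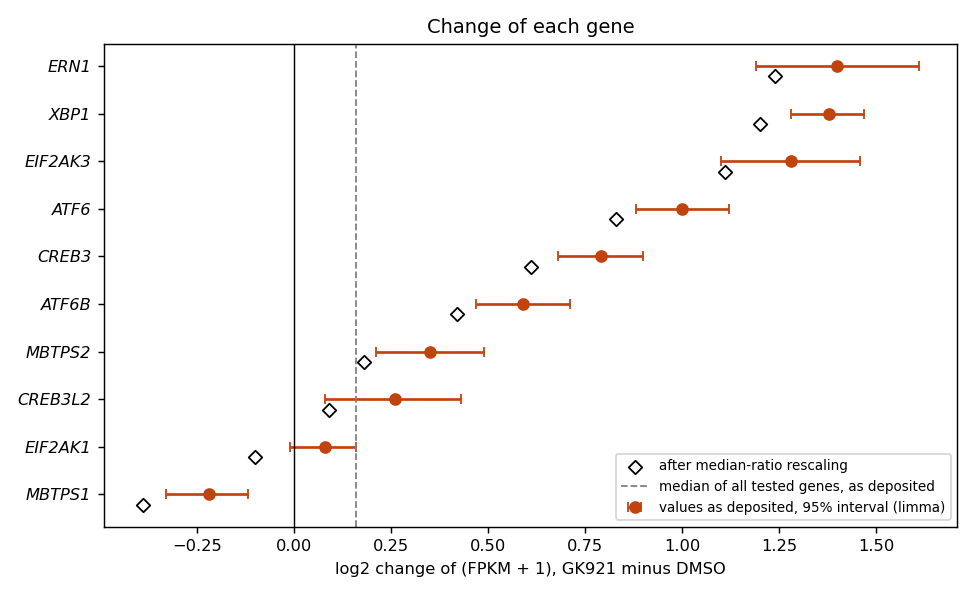
Log2 change of (FPKM + 1), GK921 minus DMSO, with the limma 95% interval (filled points) and the value after median-ratio rescaling (diamonds); the dashed line is the median of all tested genes, at 0.16. ERN1, XBP1, EIF2AK3 and ATF6 lie at 1.00 to 1.40, and the rescaling turns the sign of EIF2AK1 only.

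Of the CREB3-type factors, CREB3 (chromosome 9, 35732335 to 35737004, plus strand), also known as Luman, rose and CREB3L2 rose less. CREB3 was at 113.73, 102.47 and 112.7 FPKM in GK921 libraries, against 61.43, 64.66 and 63.16 FPKM in DMSO libraries. The lowest GK921 library was 37.81 FPKM above the highest DMSO library. Its ratio of means was 1.74 and its log2 change 0.79 ± 0.048 (SE; limma adjusted p = 6.79e-07). On the opposite strand, GBA2 and TLN1 overlap 139 and 61 of its 1903 exon bases. GBA2 averaged 25.1 FPKM in GK921 and 23.9 FPKM in DMSO, and TLN1 48.6 and 56.3 FPKM.

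CREB3L2 (chromosome 7, 137874979 to 138002067, minus strand), a factor known for driving secretory capacity in chondrocytes of mice, was at 21.2, 21.44 and 19.94 FPKM in GK921 libraries, against 17.36, 15.68 and 18.99 FPKM in DMSO libraries. The groups were separate by 0.95 FPKM only. The ratio of means was 1.2 and the log2 change 0.26 ± 0.076 (SE; limma adjusted p = 0.013). This is 0.10 above the median gene, and the call was lost after median-ratio rescaling (0.09, limma adjusted p = 0.313), upper-quartile rescaling (0.18, 0.0524) and quantile normalization (0.12, 0.193). The CREB3L2 to CREB3 ratio was 0.186, 0.209 and 0.177 in GK921 libraries, against 0.283, 0.242 and 0.301 in DMSO libraries, a difference of -0.53 ± 0.12 on the log2 scale (SE; exact two-sided permutation p = 0.1, adjusted 0.1).

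The rest of this family moved in both directions. CREB3L4 rose to 21 ± 0.752 FPKM, against 10.6 ± 1.33 FPKM in DMSO (limma adjusted p = 1.24e-05). CREB3L3, a liver-enriched factor also called CREBH, fell to 1.96 ± 0.373 FPKM, against 6.31 ± 0.82 FPKM in DMSO (limma adjusted p = 2.14e-05). CREB3L1, named to complete the family after its values were seen, rose, at 2.51 ± 0.393 and 1.46 ± 0.332 FPKM (limma adjusted p = 0.0128). ERN2, the epithelial paralog of ERN1, was at 0 in the GK921 libraries and at most 0.03 FPKM in DMSO libraries.

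The proteases that release these factors moved in opposite directions. MBTPS1 (chromosome 16, 84053761 to 84116906, minus strand), the site 1 protease, was at 30.64, 29.76 and 28.97 FPKM in GK921 libraries, against 35.22, 35.16 and 34.34 FPKM in DMSO libraries. Every GK921 value was below every DMSO value. Its ratio of means was 0.853 and its log2 change -0.22 ± 0.047 (SE; limma adjusted p = 0.00202). MBTPS2 (chromosome X, 21839636 to 21885424, plus strand), the site 2 protease, was at 24.28, 23.39 and 25.5 FPKM in GK921 libraries, against 18.89, 19.83 and 17.93 FPKM in DMSO libraries. The groups were separate by 3.56 FPKM, with a ratio of means of 1.29 and a log2 change of 0.35 ± 0.061 (SE; limma adjusted p = 6.57e-04). After median-ratio rescaling both calls remained, at -0.39 (limma adjusted p = 6.28e-05) for MBTPS1 and 0.18 (0.0223) for MBTPS2. The MBTPS1 to MBTPS2 ratio was 1.26, 1.27 and 1.14 in GK921 libraries, against 1.86, 1.77 and 1.92 in DMSO libraries. Each GK921 ratio was below every DMSO ratio, and the difference was -0.60 ± 0.062 on the log2 scale (SE; exact two-sided permutation p = 0.1, adjusted 0.1). MBTPS2 shares 1093 of its 8927 exon bases with YY2 on the same strand, a gene at 4.93 FPKM in GK921 and 4.22 FPKM in DMSO. When limma's treat asked for more than a 1.2-fold change, MBTPS1, MBTPS2 and CREB3L2 were not called (limma adjusted p = 1, 0.159 and 0.771). It called 6 of the 10 genes, all higher, against 49.5% of tested genes, 31.1% higher and 18.4% lower.

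**Figure D3:**
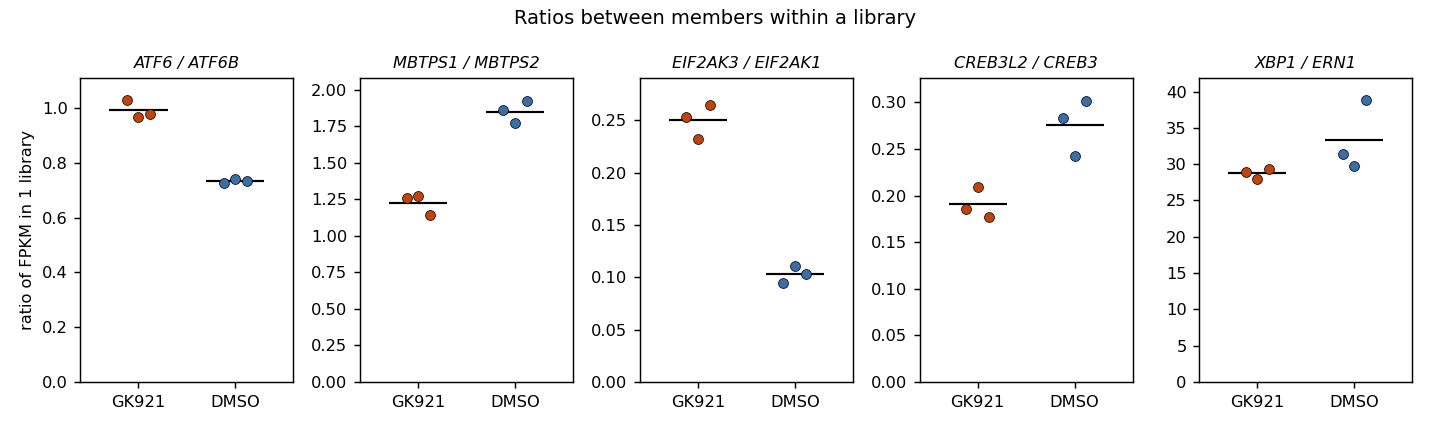
Ratio of FPKM between 2 genes in the same library, with GK921 left of DMSO; points are libraries and lines their mean. The groups are separate for each ratio shown, narrowly for XBP1 over ERN1, and the ATF6 to ATF6B ratio is near 1 in GK921 libraries.

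The order of levels changed in its middle. From high to low, the GK921 means were XBP1 (389 FPKM), EIF2AK1 (111), CREB3 (109.6), ATF6B (34.7), ATF6 (34.4), MBTPS1 (29.8), EIF2AK3 (27.6), MBTPS2 (24.4), CREB3L2 (20.9) and ERN1 (13.5). Neighbours whose libraries overlapped there were EIF2AK1 with CREB3, ATF6B with ATF6, and MBTPS1 with EIF2AK3. The DMSO means ran from XBP1 (149 FPKM) through EIF2AK1 (105), CREB3 (63.1), MBTPS1 (34.9), ATF6B (22.7), MBTPS2 (18.9), CREB3L2 (17.3), ATF6 (16.7) and EIF2AK3 (10.8) to ERN1 (4.53). There MBTPS2 overlapped CREB3L2, and CREB3L2 overlapped ATF6. ERN1 was lowest and XBP1, EIF2AK1 and CREB3 were the highest in each group, while MBTPS1 stood below ATF6B and ATF6 after GK921 and above both in DMSO.

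**Figure D4:**
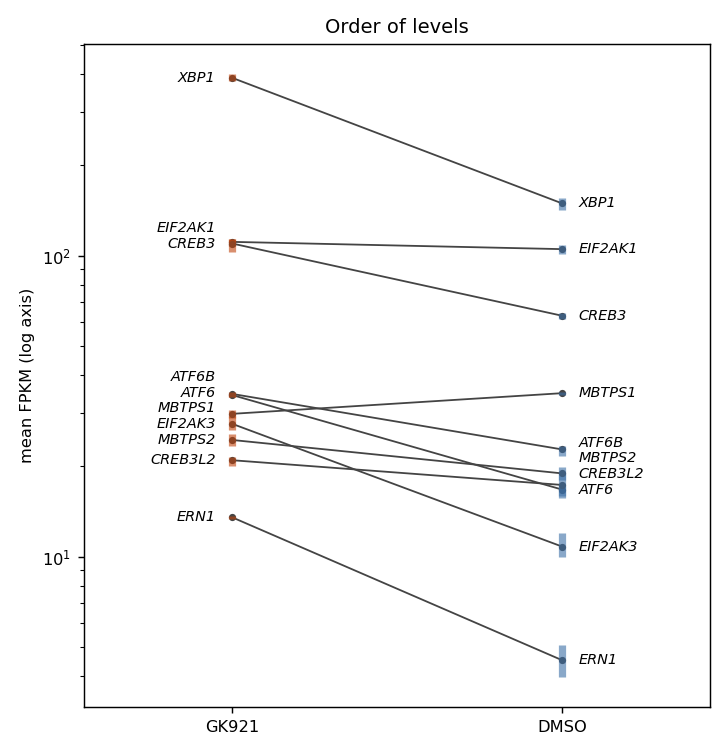
Mean FPKM of each gene on a log axis, GK921 left and DMSO right, with a line joining the means of a gene and thick bars for the range of the 3 libraries. MBTPS1 is crossed by ATF6B and ATF6, and EIF2AK1 and CREB3 nearly meet on the GK921 side.

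The target genes of the transcription factors rose as whole lists. Of all tested genes, 46.8% were higher, or 36.5% after median-ratio rescaling. All 13 tested XBP1 targets were higher; their median log2 change was 0.88, against 0.16 for all tested genes. DNAJB9 (a co-chaperone that binds IRE1) was at 637 ± 15.5 FPKM in GK921 and 99.6 ± 3.74 FPKM in DMSO, HYOU1 (a large luminal chaperone) at 649 ± 4.48 and 152 ± 0.291 FPKM, and PDIA4 (a disulfide isomerase) at 685 ± 15.8 and 189 ± 2.97 FPKM. All 13 tested ATF6 targets were higher, with a median of 1.83, and DERL3 was below the limit. After median-ratio rescaling 13 of each list were still higher. The largest log2 changes of that list were those of HERPUD1, HSPA5 and SDF2L1, at 2.98, 2.97 and 2.24. HYOU1 and PDIA4 are on both lists. Of the ATF6 targets, SYVN1, SEL1L and PDIA6 are counted again below among the partners of IRE1, and DNAJC3 in the arm below PERK. The XBP1 and ATF6 target lists hold genes already known to rise in these libraries, and their counts are not independent evidence. For 10 of the tested ATF6 targets and 5 of the tested XBP1 targets, the log2 change was larger than that of every one of the 10 genes. These counts depend on the pseudocount of 1, which lowers the change of ERN1, a low gene. By ratio of means, SEL1L (2.75) and SERP1 (2.86) were below ERN1 (2.99). SERP1, an XBP1 target, is named beyond the rule, after its values were seen.

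Genes that carry ATF6 to the Golgi, control its disulfides or restrain it mostly rose, with 8 of 9 higher and 1 lower (median 0.69). As deposited, 46.8% of all tested genes were higher. PDIA5, which reduces ATF6 disulfides, was at 44.5 ± 1.45 FPKM in GK921 and 23.3 ± 1.63 FPKM in DMSO, and the cargo receptor gene TMED10 at 279.6 ± 7.72 and 157 ± 4.03 FPKM. NUCB1, known to restrain ATF6 cleavage, was at 160 ± 4.86 and 90.5 ± 4.07 FPKM. TXNDC12, a thioredoxin-like gene, fell to 28.2 ± 4.57 FPKM, against 45.4 ± 1.36 FPKM in DMSO. After median-ratio rescaling 6 were higher and 1 lower, beside 36.5% and 37.8% of all tested genes.

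Partners of IRE1 and of XBP1 splicing moved both ways, with 8 of 19 higher, 4 lower and 7 not called (median 0.06), or 7 higher and 8 lower after median-ratio rescaling. As deposited, both shares called were below those of all tested genes, 46.8% higher and 29.2% lower. After the rescaling neither share was below those of all tested genes, 36.5% higher and 37.8% lower. The ubiquitin ligase gene SYVN1 and its partner SEL1L, which degrade IRE1, were at 126 ± 4.55 and 155 ± 4.89 FPKM in GK921, against 33.7 ± 0.259 and 56.4 ± 0.724 FPKM in DMSO. The translocon gene SEC63 was at 132 ± 1.12 FPKM in GK921 and 61.4 ± 4.62 FPKM in DMSO. RTCB, the ligase that joins the cut ends of XBP1 mRNA, fell to 68.8 ± 3.4 FPKM, against 93.8 ± 0.918 FPKM in DMSO (log2 change -0.44 ± 0.043; limma adjusted p = 1.47e-05). The other 3 genes that fell, DDX1, FAM98A and FAM98B, belong to the same ligase complex. RTRAF, of that complex, and ZBTB8OS (archease), a cofactor of the ligase, were called higher. The RTRAF call turned to lower after median-ratio rescaling (-0.08; limma adjusted p = 0.031). These 5 genes are named beyond the rule and were picked after their values were seen.

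Transcripts known as substrates of IRE1-dependent decay were lower for 4 of 6 tested, with 1 higher and a median of -0.42, where 29.2% of tested genes were lower. After median-ratio rescaling 5 were lower and 0 higher, beside 37.8% and 36.5% of all tested genes. HGSNAT lost its call there (limma adjusted p = 0.76). The largest fall was of a low gene, SCARA3, which averaged 1.13 FPKM in GK921 and 4.4 FPKM in DMSO. PDGFRB (0.327 and 0.0167 FPKM) and CD59 (0.527 and 0.573 FPKM) were listed but too low to be tested. SCARA3, PDGFRB and CD59 are named beyond the rule, after their values were seen. COL6A1, a collagen gene, was at 153 ± 3.37 FPKM in GK921 and 206 ± 6.26 FPKM in DMSO, and PMP22, a myelin gene, at 35.6 ± 1.42 and 45.3 ± 2.63 FPKM. BLOC1S1, a widely used marker of this decay, was at 3.56, 6.09 and 3.52 FPKM in GK921 libraries, against 8.34, 5.64 and 6.27 FPKM in DMSO libraries. These groups overlapped, and its call (limma adjusted p = 0.0307) was lost without GK921 replicate 1 or 3 (0.1 and 0.102) and without DMSO replicate 1 or 3 (0.11 and 0.0503). HGSNAT, the gene that was higher, averaged 13.5 FPKM in GK921 and 11.8 FPKM in DMSO, and that call (limma adjusted p = 0.0372) was lost in 5 of the 6 fits without 1 library. In the 6 fits without 1 library, 3 to 4 genes of the list were called in place of 5. The count was 3 without GK921 replicate 1 or DMSO replicate 1.

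In the arm below PERK, 10 of 17 genes were higher and 4 lower (median 0.24), or 8 and 6 after median-ratio rescaling. As deposited, these counts are not far from the 46.8% higher and 29.2% lower of all tested genes. After the rescaling those shares were 36.5% and 37.8%. The list also holds subunit genes of eIF2, its exchange factor and the phosphatase. The 4 lower were such subunits (EIF2S1, EIF2S3, EIF2B5, PPP1CA), while EIF2S2, EIF2B1 and EIF2B3 were higher as deposited. ATF4 rose to 379 ± 13.1 FPKM, against 199 ± 7.06 FPKM in DMSO, and TRIB3 to 189.7 ± 6.69, against 131 ± 4.73 FPKM. Apart from PPP1CA, these are named beyond the rule, after their values were seen. DDIT3 (CHOP) was at 1746 ± 36.8 FPKM in GK921 and 241 ± 2.82 FPKM in DMSO. PPP1R15A, which directs the phosphatase to eIF2alpha, was at 338 ± 5.6 and 91.9 ± 1.57 FPKM, and DNAJC3, a co-chaperone that restrains PERK, at 38.4 ± 1.69 and 19.5 ± 1.4 FPKM. The catalytic phosphatase gene PPP1CA fell to 115 ± 5.64 FPKM, against 171 ± 2.81 FPKM in DMSO. A list of 8 genes around the relay that signals mitochondrial stress to HRI also holds mitochondrial chaperonin and protease genes. Of the 8, 2 were higher, 2 lower and 4 not called (median -0.02), beside 46.8% and 29.2% of all tested genes. After median-ratio rescaling 1 was higher and 4 lower, beside 36.5% and 37.8%. OMA1 averaged 24.9 FPKM in GK921 and 22.2 FPKM in DMSO, and DELE1 13.2 and 14.2 FPKM. Both are named beyond the rule, after their values were seen. The OMA1 call was lost after the rescaling and DELE1 was not called before it. The chaperonin genes HSPD1 and HSPE1 fell to 498 ± 2.9 and 138 ± 5.36 FPKM, against 911 ± 15.6 and 257 ± 22.5 FPKM in DMSO. The mitochondrial protease gene YME1L1 rose to 110.2 ± 1.43 FPKM, against 88.9 ± 1.53 FPKM in DMSO.

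The site proteases also process the sterol factors SREBF1 and SREBF2, and the list of their substrates, the sterol escort and the sterol targets had 6 of 13 higher and 4 lower (median 0.15), or 4 and 5 after median-ratio rescaling. As deposited, these are about the shares of all tested genes, 46.8% higher and 29.2% lower. After the rescaling the shares of all tested genes were 36.5% and 37.8%. INSIG1, which retains the escort protein in the endoplasmic reticulum, was at 54.3 ± 4.25 FPKM in GK921 and 21.8 ± 2 FPKM in DMSO. SQLE, of cholesterol synthesis, was at 183 ± 1.91 and 116 ± 2.43 FPKM. FASN, fatty acid synthase, fell to 64 ± 1.48 FPKM, against 141 ± 2.05 FPKM in DMSO.

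**Figure D5:**
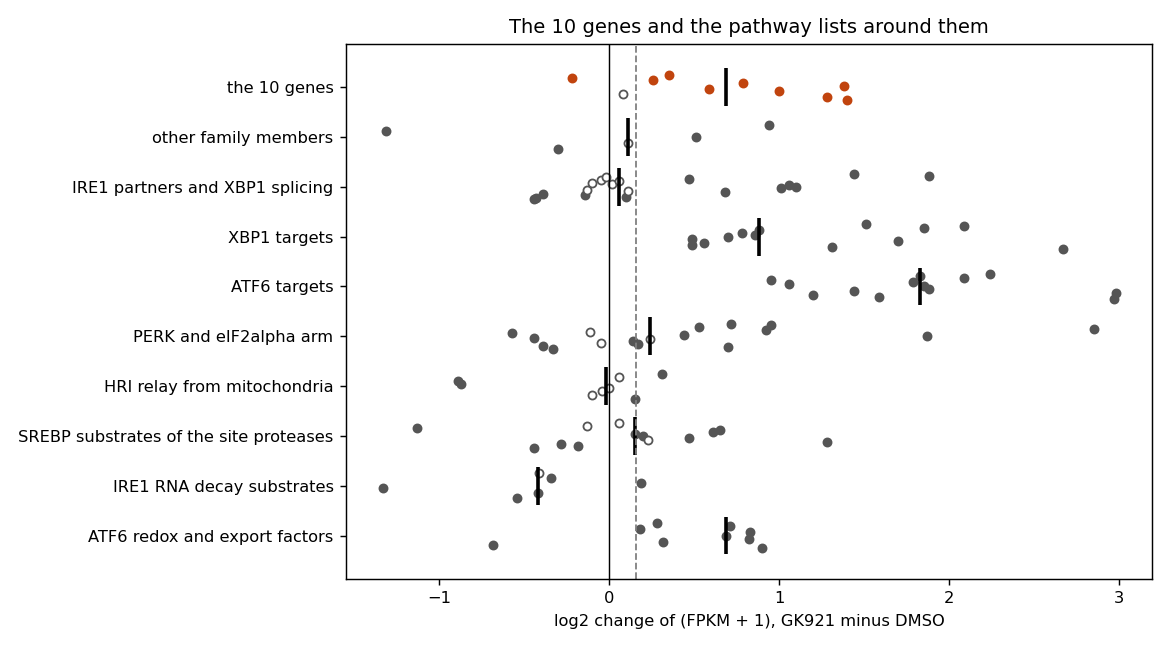
Log2 change of (FPKM + 1), GK921 minus DMSO, for the 10 genes and each tested gene of the lists around them; filled points passed the limma test, open points did not, black bars are list medians and the dashed line is the median of all tested genes. The XBP1 and ATF6 target lists lie wholly to the right of 0, and the IRE1 decay list has its median at -0.42.

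For each of the 10 genes, the 2 genes most alike in their 6 values were found by the root mean square difference of centred log2(FPKM + 1) among 9627 other genes that averaged 5 FPKM or more. The differences were 0.011 to 0.045, so these lists hold genes with nearly the same change and no more is drawn from them. ERN1 was most like GAB2 and MAFK, EIF2AK3 like TGIF1 and DNAJC25, and ATF6 like PSAT1 and TLE1. XBP1 was most like RIOK3 (153 FPKM in GK921 and 57.5 FPKM in DMSO) and ERRFI1 (552 and 209.9 FPKM). ATF6B was most like RLF and GTF2H1, CREB3 like CCNYL1 and CDK13, and CREB3L2 like SRRD and DNAAF2. MBTPS1 was most like CTSL and MFN2, MBTPS2 like RAB3GAP1 and ZCRB1, and EIF2AK1 like ALAS1 (103 and 98.1 FPKM) and QTRT2 (37.5 and 35.6 FPKM).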

How the data were processed

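RNA-seq values of 6 MHCC-97H libraries were deposited as FPKM per gene symbol with 2 decimals, 1 column per library, per the file headers. Per the submitters' processing notes, the tools were FastQC (0.11.5), HISAT2, featureCounts and edgeR and the build was hg38, with no roles stated. No source used here gives the annotation or the handling of strand. Columns summed to 821498 to 836182, which cannot tell FPKM from TPM. Values were used as deposited and limma (3.58.1, R 4.3.3) was fitted to log2(FPKM + 1) of the genes averaging 1 FPKM or more, with treatment as the only term, an intensity trend and Benjamini-Hochberg adjustment over all 11573 tested genes (called at an adjusted p under 0.05). Log2 changes understate those of low genes, and folds are ratios of mean FPKM. Ratios between members were compared with an exact permutation test. Read totals are not known, so no counting interval was set. At most 0.389% of tested genes had equal values in 2 libraries of a group. The members, lists and tests were chosen with earlier results of these data known. Named genes were the 10 members, up to 3 of the largest called changes per list with at least 5 FPKM in the higher group plus the largest opposite call, and the 2 genes most alike per member. Other settings tried were pseudocounts, expression limits, 3 rescalings, a replicate block, leaving out each library, no trend, array weights and treat. Positions came from GENCODE release 29 and promoters from RefSeq GRCh38.p14. Some marker genes are not reported here by name.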

Additional observations from a re-analysis of the deposited data

How the results depend on the processing

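No member changed its call or direction when any 1 library was left out, under pseudocounts of 0.1 and 5, either expression limit, no trend or array weights. Log2 changes without 1 library were 1.33 to 1.47 for ERN1, 1.23 to 1.35 for EIF2AK3, 0.05 to 0.10 for EIF2AK1, 0.97 to 1.02 for ATF6, 0.56 to 0.61 for ATF6B, 1.34 to 1.40 for XBP1, 0.76 to 0.83 for CREB3, 0.19 to 0.32 for CREB3L2, -0.24 to -0.20 for MBTPS1 and 0.32 to 0.39 for MBTPS2. Between 9 and 10 members had separate groups in these fits. EIF2AK1 reversed to -0.10 under median-ratio rescaling, which made 2 members lower. CREB3L2 lost its call under median-ratio (0.09), upper-quartile (0.18) and quantile (0.12) scaling. Treat against a 1.2-fold change did not call CREB3L2 (0.26), MBTPS1 (-0.22) or MBTPS2 (0.35), left 0 members lower (1 by limma) and called 5730 genes in all, 3595 higher and 2135 lower, against 8789, 5411 and 3378. The log2 ratio of EIF2AK3 to EIF2AK1 was 1.14 after quantile normalization. That of XBP1 to ERN1 was -0.02 with a pseudocount of 1 and reversed to 0.09 after quantile normalization, and lay between -0.28 and -0.09 without 1 library. The cause of these changes was not tested, apart from the shift of the median gene. Nothing in the labels says whether replicate numbers pair the libraries. Deviations of same-numbered libraries correlated at 0.031, 0.047 and -0.002, so no shared deviation was seen, which cannot show that the libraries were unpaired. With the replicate block the log2 changes of members were the same and 9 were called. Among listed counts, treat called 2 rather than 4 other family members and 2 rather than 4 genes of the list around the HRI relay. It called 6 rather than 10 of the sterol list and 2 rather than 5 decay substrates. The limit of 5 FPKM kept 2 of the called family members.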
